A study of Homo sapiens with 4 samples.

Results

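The 37 rows of the deposited count table whose names start with MT- are the genes of the human mitochondrial genome, and they are described here by the DNA strand that encodes them. They were chosen by name out of 59385 rows in all. They comprise 13 protein genes, 2 ribosomal RNA genes and 22 transfer RNA (tRNA) genes. The light-strand group holds 9 of them, namely MT-ND6 and the tRNA genes MT-TQ, MT-TA, MT-TN, MT-TC, MT-TY, MT-TS1, MT-TE and MT-TP, and the heavy-strand group holds the other 28. In the annotation all 9 lie on the minus strand and all 28 on the plus strand, so the grouping owes nothing to the counts.

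RNA came from C4-2, an established human prostate cancer cell line of epithelial type that descends from LNCaP. Cells carried a small interfering RNA against EZH2 (siEZH2, n = 2 libraries) or a control one (siCTRL, n = 2 libraries). No other agent, time or dose is given in the labels. EZH2 encodes the histone methyltransferase of Polycomb repressive complex 2, and the study compared expression with and without its depletion.

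Human mitochondrial DNA is copied into RNA from both strands as long transcripts that run over many genes. tRNAs stand between the other genes like punctuation, and enzymes cut them out to free the mRNAs and ribosomal RNAs on either side. The transcript that carries the heavy-strand group's mRNAs also runs across the positions opposite each light-strand gene, and the mature MT-CO1 and MT-ND5 mRNAs are known to extend over the positions opposite MT-TS1 and MT-ND6. Which strand the counting assigned to a row is not given in the sources used here and was not tested. RNA of the gene and RNA opposite to it are therefore not told apart here, and values are given as counts under a row.

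Total counts ran from 6162123 to 6867542 per library. EZH2 itself had 60 and 131 counts in the libraries labelled siEZH2, against 39 and 59 in those labelled siCTRL. Its log2 fold change was 0.51 (standard error 0.52, edgeR adjusted p = 0.621, from a quasi-likelihood test with Benjamini-Hochberg adjustment over all tested rows). Counts under the targeted gene were thus not lower in the libraries labelled siEZH2, and every direction below is that of libraries named by their labels. The strand counted is not known for the EZH2 row either, so whether EZH2 mRNA was depleted was not tested by these counts. All 11 prostate luminal markers had counts in every library. KRT8, a luminal keratin, held most of them, with 20476 and 10048 counts in the libraries labelled siEZH2, against 19289 and 18784 in those labelled siCTRL. The 10 fibroblast and endothelial markers also all had counts, which summed to 6.96 and 7.29 per kb of row length in the libraries labelled siEZH2, against 2.02 and 4.73 in those labelled siCTRL. The luminal markers summed to 384 and 204 per kb in the libraries labelled siEZH2, against 375 and 371 in those labelled siCTRL. Of the tested markers, 11 of 11 luminal ones had a negative and 10 of 10 of the others a positive log2 fold change, and edgeR called 0 of them, with 5 and 2 past an unadjusted p of 0.05 in the same order, where 7.91% of all tested rows were lower and 8.53% higher at that level. Signs followed count level across the table: 4.46% of tested rows with a mean of 200 to 1000 counts were positive and 69.3% of those with 20 to 50, and the median marker of each list had 213.8 and 38.5 counts. The part of either marker list in the results below was not tested. Nothing in the labels says whether replicates were separate cultures, so p-values measure the spread between these libraries, which may be technical.

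Of the light-strand tRNA genes, 5 are shown because their counts span the whole range of the group: MT-TS1, MT-TP, MT-TY and MT-TQ are the highest per kb, and MT-TC, which lies beside MT-TY, is among the lowest. Each is printed in the gene's own direction, as DNA letters from the GENCODE release 29 transcripts on GRCh38, with the anticodon in capitals.

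MT-TS1, a serine tRNA, mitochondrial positions 7446 to 7514, minus strand: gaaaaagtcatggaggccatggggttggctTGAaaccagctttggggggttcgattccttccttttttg
MT-TP, the proline tRNA, positions 15956 to 16023, minus strand: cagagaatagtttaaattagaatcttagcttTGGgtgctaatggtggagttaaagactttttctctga
MT-TY, the tyrosine tRNA, positions 5826 to 5891, minus strand: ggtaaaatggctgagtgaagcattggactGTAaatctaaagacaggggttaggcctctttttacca
MT-TC, the cysteine tRNA, positions 5761 to 5826, minus strand: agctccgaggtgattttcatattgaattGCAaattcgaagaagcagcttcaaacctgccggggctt
MT-TQ, the glutamine tRNA, positions 4329 to 4400, minus strand: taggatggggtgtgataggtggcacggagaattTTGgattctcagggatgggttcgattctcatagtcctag

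The light-strand rows are rich in G in the direction of the gene. Base make-up goes with the strand, so it is not independent of the grouping. All 9 have more G than C. MT-ND6 is 35.6% G and 7.05% C, and the 8 light-strand tRNA genes run from 23.5% to 36.1% G and from 10.3% to 21.2% C. The 12 heavy-strand protein genes show the opposite, with 6.28% to 16.2% G and 29.5% to 36.0% C. Of the 14 heavy-strand tRNA genes 1, MT-TI, has more G than C.

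Most mitochondrial counts lay under light-strand rows in every library. Those rows cover 1077 of the 15416 bases of row length (6.99%). They held 57691 and 69681 counts in the libraries labelled siEZH2, against 92666 and 58277 in those labelled siCTRL. The heavy-strand rows held 9451 and 12107 counts in the libraries labelled siEZH2, against 24817 and 10120 in those labelled siCTRL. Light-strand rows thus had 81.3 and 76.6 times as many counts per kb as heavy-strand rows in the libraries labelled siEZH2, against 49.7 and 76.7 times in those labelled siCTRL. In counts not divided by length the ratios were 6.10 and 5.76, against 3.73 and 5.76. Of the light-strand bases 552 lie in tRNA rows of 66 to 73 bases. How far per-kb values of such short rows compare with those of long rows was not tested. The siCTRL replicate 1 library stood apart by its many heavy-strand counts.

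MT-ND6 and MT-TS1 together made up most of the light-strand counts. MT-ND6, a subunit of respiratory complex I (positions 14149 to 14673, minus strand), held 29501 and 41158 counts in the libraries labelled siEZH2, against 53497 and 38229 in those labelled siCTRL. Per kb these were 84.2 and 77.3 times the median heavy-strand protein row in the libraries labelled siEZH2, against 53.1 and 92.9 times in those labelled siCTRL. MT-TS1 held 17221 and 18003 counts in the libraries labelled siEZH2, against 25308 and 12042 in those labelled siCTRL. At 249580 and 260913 counts per kb in the libraries labelled siEZH2, against 366783 and 174522 in those labelled siCTRL, it ranked first of the 37 rows in all 4 libraries. Its neighbours are MT-CO1, a catalytic subunit of cytochrome c oxidase, and MT-TD, the aspartate tRNA. MT-CO1 had 1014 and 1160 counts per kb in the libraries labelled siEZH2, against 2085 and 1006 in those labelled siCTRL, and MT-TD held 5 and 0 counts, against 7 and 0.

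**Figure D1:**
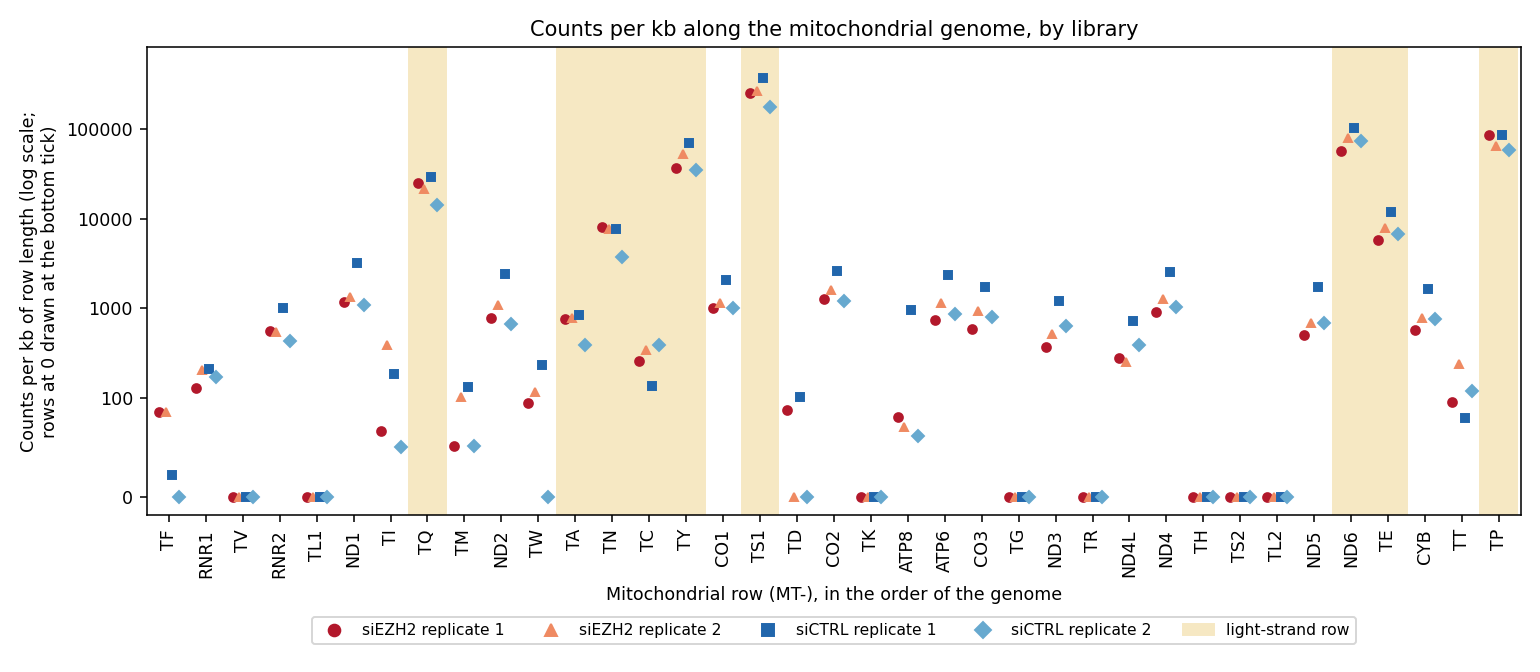
Counts per kb of row length (log scale, rows at 0 drawn at the bottom tick) for the 37 mitochondrial rows in the order of the genome, with 1 point per library and light-strand rows shaded. MT-TS1 reaches 174522 to 366783 counts per kb, and 8 heavy-strand tRNA rows are at 0 in all 4 libraries.

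MT-TP, MT-TY and MT-TQ followed MT-TS1 among the tRNA rows, in that order in every library. MT-TP held 5704 and 4380 counts in the libraries labelled siEZH2, against 5802 and 3903 in those labelled siCTRL. MT-TY held 2421 and 3446 counts in the libraries labelled siEZH2, against 4515 and 2284 in those labelled siCTRL. MT-TQ held 1789 and 1526 counts in the libraries labelled siEZH2, against 2094 and 1024 in those labelled siCTRL. The order of MT-TP and MT-ND6 per kb was not stable, since MT-TP was the higher in siEZH2 replicate 1 and MT-ND6 in the other 3 libraries.

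The 4 tRNA genes that lie in a row between MT-TW and MT-CO1 differed widely among themselves. MT-TY, next to MT-CO1, had 142 and 150 times the counts of MT-TC in the libraries labelled siEZH2, against 502 and 87.8 times in those labelled siCTRL, although the 2 genes have the same length and share 1 base. MT-TC held 17 and 23 counts in the libraries labelled siEZH2, against 9 and 26 in those labelled siCTRL, so the ratio rests on few counts. MT-TN, the asparagine tRNA, held 585 and 553 counts in the libraries labelled siEZH2, against 562 and 273 in those labelled siCTRL. It stood above its neighbour MT-TA, the alanine tRNA, in every library. MT-TA held 52 and 54 counts in the libraries labelled siEZH2, against 59 and 27 in those labelled siCTRL. MT-TE, the glutamate tRNA that adjoins MT-ND6, held 401 and 538 counts in the libraries labelled siEZH2, against 820 and 469 in those labelled siCTRL.

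Most light-strand rows had high counts, but not all. MT-TS1, MT-ND6, MT-TP, MT-TY, MT-TQ, MT-TN and MT-TE held ranks 1 to 7 per kb among the mitochondrial rows in every library. MT-TC and MT-TA lay far lower. Between 12 and 16 of the 28 heavy-strand rows had more counts per kb than the lowest light-strand row, which was MT-TC in 3 libraries and MT-TA in siCTRL replicate 2.

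Among tRNA rows the strands separated almost completely. The 14 heavy-strand tRNA rows together held 27 and 63 counts in the libraries labelled siEZH2, against 50 and 12 in those labelled siCTRL, while the 8 light-strand tRNA rows held 28190 and 28523, against 39169 and 20048. Rows at 0 in all 4 libraries numbered 8, all of them heavy-strand tRNA genes (MT-TV, MT-TL1, MT-TK, MT-TG, MT-TR, MT-TH, MT-TS2 and MT-TL2). A count of 0 allows up to 3 counts in a library, or 0.437 to 0.487 CPM (counts scaled to library size, here with no further factor). Low levels under these rows were thus not detectable at this depth. The bound is on counts under the row and not on the tRNA, since the strand counted is not known. MT-TI, the isoleucine tRNA, shares 3 bases with MT-TQ on the other strand and held 3 and 27 counts in the libraries labelled siEZH2, against 13 and 2 in those labelled siCTRL. MT-TT, the threonine tRNA beside MT-TP, held 6 and 16 counts in the libraries labelled siEZH2, against 4 and 8 in those labelled siCTRL. MT-TM, MT-TW and MT-TF held between 0 and 16 counts in any library.

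The 12 heavy-strand protein genes encode core subunits of complexes I, III and IV and of ATP synthase. Their summed counts were 8415 and 10991 in the libraries labelled siEZH2, against 22984 and 9267 in those labelled siCTRL, and the siCTRL replicate 1 library was the highest for 12 of 12. The median row had 667 and 1014 counts per kb in the libraries labelled siEZH2, against 1919 and 784 in those labelled siCTRL. MT-CO2 and MT-ND1, subunits of complexes IV and I, had the most counts per kb of these rows in every library. MT-CO2 had 1272 and 1621 counts per kb in the libraries labelled siEZH2, against 2621 and 1205 in those labelled siCTRL. MT-ND1 had 1182 and 1338 counts per kb in the libraries labelled siEZH2, against 3227 and 1106 in those labelled siCTRL. Near the other end, MT-ND4L had 279 and 253 counts per kb in the libraries labelled siEZH2, against 734 and 397 in those labelled siCTRL, and it shares 7 bases with MT-ND4, so the counting could split reads between them.

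MT-ATP8, an ATP synthase subunit, had the largest ratio between the siCTRL libraries. It held 13 and 10 counts in the libraries labelled siEZH2, against 201 and 8 in those labelled siCTRL. A single library was high, and the other 3 lay within a few counts of each other. MT-ATP8 shares 46 of its 207 bases with MT-ATP6, and counts in that overlap are uncertain.

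The ribosomal RNA rows, whose products are the most abundant mitochondrial RNAs in most cells, did not stand above the heavy-strand protein rows. MT-RNR1, the small subunit RNA, held 124 and 197 counts in the libraries labelled siEZH2, against 205 and 164 in those labelled siCTRL. MT-RNR2, the large subunit RNA, held 885 and 856 counts in the libraries labelled siEZH2, against 1578 and 677 in those labelled siCTRL. Per kb MT-RNR2 reached 0.851 and 0.542 times the median heavy-strand protein row in the libraries labelled siEZH2, against 0.527 and 0.554 times in those labelled siCTRL. Whether the library kit removed ribosomal RNA is not given in the labels.

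The light-strand share of mitochondrial counts was close to equal in 3 libraries and lower in the fourth. It was 85.9% and 85.2% in the libraries labelled siEZH2, against 78.9% and 85.2% in those labelled siCTRL. Exact (Clopper-Pearson) 95% intervals, which cover counting error only, ran from 85.7% to 86.2% and from 85.0% to 85.4% in the libraries labelled siEZH2, against 78.6% to 79.1% and 84.9% to 85.5% in those labelled siCTRL. The means were 85.6% ± 0.514 in the libraries labelled siEZH2 and 82.0% ± 4.47 in those labelled siCTRL (SD, n = 2 each), a difference of 3.52 percentage points. An exact two-sided permutation test gave p = 0.667, and 2 libraries against 2 cannot give a p below 0.333. Without siCTRL replicate 1 the difference was 0.356 points. The difference between the groups was therefore no larger than the spread between the siCTRL libraries.

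Within the light-strand counts the split between MT-ND6 and the tRNA rows varied more. MT-ND6 took 43.9% and 50.3% of mitochondrial counts in the libraries labelled siEZH2, against 45.5% and 55.9% in those labelled siCTRL, and these ranges overlap. The light-strand tRNA rows took 42.0% and 34.9% in the libraries labelled siEZH2, against 33.3% and 29.3% in those labelled siCTRL. These groups do not overlap, with means of 38.4% ± 5.03 and 31.3% ± 2.85 (SD, n = 2 each) in the same order. The difference of 7.10 points gave an exact two-sided permutation p = 0.333, the smallest this design can give, and it was 9.12 points without siCTRL replicate 1. MT-TS1 made up 61.1% and 63.1% of the light-strand tRNA counts in the libraries labelled siEZH2, against 64.6% and 60.1% in those labelled siCTRL. Shares were compared for 13 such quantities, and none could pass a threshold of 0.05 in this design.

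**Figure D2:**
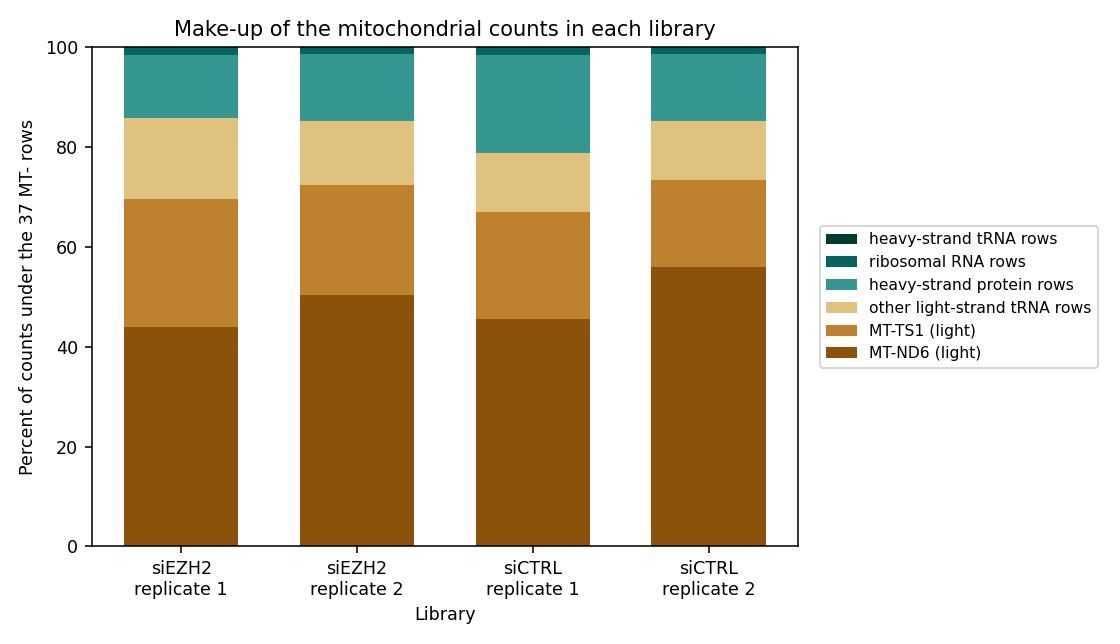
Stacked bars give the percent of counts under the 37 mitochondrial rows that fell to each class of row, for each library. MT-ND6 takes 43.9% to 55.9%, and the heavy-strand protein rows take 12.5%, 13.4% and 13.5% in 3 libraries and 19.6% in siCTRL replicate 1.

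The light-strand share of the tRNA counts alone was 99.9% and 99.8% in the libraries labelled siEZH2, against 99.9% and 99.9% in those labelled siCTRL. Group means differed by -0.06 percentage points (siEZH2 minus siCTRL, exact two-sided permutation p = 0.667).

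Mitochondrial rows made up 1.06% and 1.33% of all counts in the libraries labelled siEZH2, against 1.71% and 1.00% in those labelled siCTRL. The means were 1.19% ± 0.192 and 1.36% ± 0.5003 in the same order (SD, n = 2 each), and the exact two-sided permutation test gave p = 1. The difference, siEZH2 minus siCTRL, was -0.17 percentage points with all libraries and 0.19 points without siCTRL replicate 1, so that library decided its sign.

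The siCTRL replicate 1 library differed from siCTRL replicate 2 on both strands, and by more for some heavy-strand rows. Over the 12 heavy-strand protein rows its counts were 1.85 to 25.1 times those of siCTRL replicate 2, with a median of 2.31. Over the 9 light-strand rows the ratio ran from 0.346 for MT-TC to 2.19 for MT-TA, with a median of 1.98. For MT-ND6 it was 1.40. Over the 2869 other rows of the table with a mean of at least 200 counts and a count in siCTRL replicate 2, the median ratio was 1.05. Mean counts of the libraries labelled siEZH2 over those of siCTRL replicate 2 had a median ratio of 1.07 over the heavy-strand protein rows and 1.29 over the light-strand rows.

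**Figure D3:**
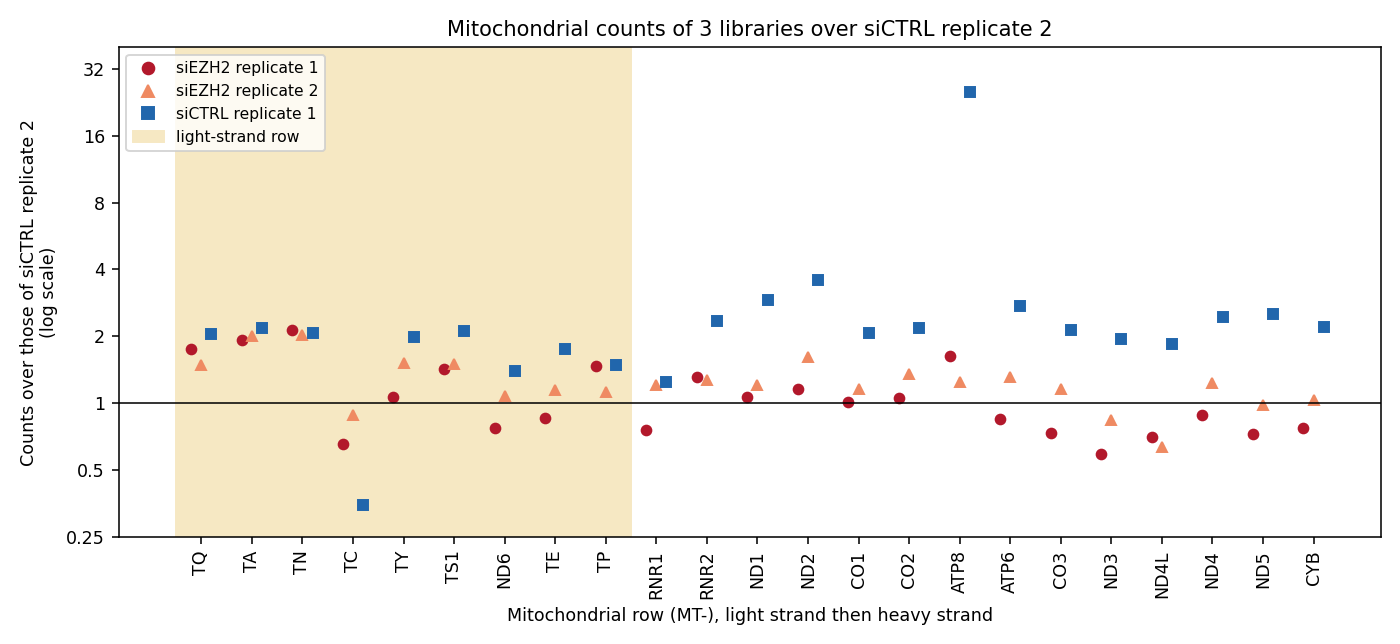
Counts of each of 3 libraries divided by those of siCTRL replicate 2 (log scale), for the light-strand rows (shaded) and the heavy-strand protein and ribosomal RNA rows. The siCTRL replicate 1 points lie at 1.85 to 25.1 for the heavy-strand protein rows, above both siEZH2-labelled libraries in each.

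In the test over the whole table, no mitochondrial row was called higher or lower in the libraries labelled siEZH2. Of the 37 rows 24 passed the filter on low counts, 15 heavy-strand and all 9 light-strand ones, and 0 of them passed at an adjusted p of 0.05 (edgeR quasi-likelihood test), against 0% of all 24431 rows tested. At an unadjusted p under 0.05, 12 mitochondrial rows had a negative fold change and 0 a positive one, where 7.91% of all tested rows were negative at that level. Of those 12 rows 11 were heavy-strand and 1 was light-strand. These numbers depended on the scaling. Factors from rows with 200 counts or more in 2 libraries gave 2 negative and 1 positive mitochondrial rows. Over all tested rows they gave 272 and 4400. No scaling factors gave 3 and 0, and 447 and 3847 over all tested rows. Signs also followed count level. Of tested rows averaging 200 to 1000 and 1000 or more counts, 4.46% and 1.67% were positive. Those classes hold 6 and 12 mitochondrial rows. In CPM with TMM scaling factors, both libraries labelled siEZH2 lay below both labelled siCTRL for 9 heavy-strand and 2 light-strand rows, against 22.9% of all tested rows. For some of these rows that rested on the factors. In unscaled counts siEZH2 replicate 2 was above siCTRL replicate 2 for MT-ND1 (1279 against 1057) and MT-ND4 (1769 against 1433). It was below for MT-ND3 (182 against 218) and MT-ND4L (75 against 118). DESeq2 called 8 mitochondrial rows lower, all of them heavy-strand protein rows. It gave an adjusted p to 20 of the 24 mitochondrial rows and to 5011 rows in all, of which 17.1% were called lower. The limma-voom test called 2 mitochondrial rows (MT-ND3 and MT-ND5), both lower, against 1.37% of all tested rows. With RLE scaling factors 1 mitochondrial row, MT-ATP8, was called lower in edgeR, against 0.0491% of all tested rows. With no low-count filter it was again the 1 mitochondrial row called, against 0.133% of all tested rows called lower.

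The heavy-strand rows had the more negative fold changes. Their median log2 fold change was -1.31 over 15 rows, 14 of them negative, and that of the light-strand rows was -0.42 over 9 rows, all of them negative, beside 0.22 over all tested rows. When scaling factors were taken from well-covered rows alone (200 counts or more in 2 libraries), these medians were -0.44, 0.32 and 0.88, so the sign of the light-strand median depended on the scaling. It also turned positive with no scaling factors, at 0.20. Relative to the median of all tested rows, the heavy-strand median was -1.52 and the light-strand median -0.64, and under the scaling on well-covered rows they were -1.32 and -0.56. Among rows with at least 50 counts in 2 libraries they were -0.81 over 13 heavy-strand rows and -0.08 over 8 light-strand rows. Rows with many counts had negative fold changes across the whole table: the median was -0.71 over the 959 tested rows with a mean of 1000 or more counts, a class that holds 7 heavy-strand and 5 light-strand rows. Without siCTRL replicate 1 the heavy-strand median was -0.21 and the light-strand median 0.08, beside 0.21 over all rows, so that library decided most of both values.

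Single rows showed the same dependence. MT-ND5, a complex I subunit, had 913 and 1240 counts in the libraries labelled siEZH2, against 3176 and 1262 in those labelled siCTRL. With TMM scaling factors, as for every CPM value from here on, these averaged 142 ± 16.2 and 429.6 ± 327 CPM (SD, n = 2 each). On that scale both libraries labelled siEZH2 lay below both labelled siCTRL, and siEZH2 replicate 2 was close to siCTRL replicate 2 in counts. The log2 fold change (standard error) was -1.60 (0.50) with an edgeR adjusted p of 0.193, and the value without siCTRL replicate 1 was -0.55. It was -0.76 with scaling on well-covered rows and -0.89 with no scaling factors. MT-ND6 averaged 4652 ± 619 CPM in the libraries labelled siEZH2 and 8568 ± 3633 CPM in those labelled siCTRL (SD, n = 2 each). The log2 fold change (standard error) was -0.88 (0.54) with an edgeR adjusted p of 0.403, and the value without siCTRL replicate 1 was -0.44. It shrank to -0.10 with scaling on well-covered rows and to -0.23 with no scaling factors. MT-TS1 averaged 2343 ± 166 CPM in the libraries labelled siEZH2 and 3579 ± 2389 CPM in those labelled siCTRL (SD, n = 2 each), and its groups overlap. Its log2 fold change of -0.61 (edgeR adjusted p = 0.558) became 0.24 without siCTRL replicate 1. With all libraries it became 0.20 with scaling on well-covered rows and 0.06 with no scaling factors.

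MT-ATP8 had the most negative value of the 24 tested mitochondrial rows, a log2 fold change of -3.78 (standard error 0.95, edgeR adjusted p = 0.189), and the value without siCTRL replicate 1 was 0.23. MT-CYB, the cytochrome b subunit of complex III, had -1.37 and MT-CO1 -1.04. With scaling on well-covered rows they had -0.54 and -0.23, and with no scaling factors -0.67 and -0.36. Without siCTRL replicate 1 they had -0.47 and -0.20. MT-ND3 and MT-ND4L, complex I subunits, kept the more negative values of the heavy-strand protein rows without it, at -0.82 and -0.88, with an unadjusted p of 0.133 and 0.143 (edgeR). MT-TN had -0.07 with all libraries and 0.76 without it. MT-TI, with 3 to 27 counts in the libraries labelled siEZH2, was the row with a positive value in the test on all libraries, at 0.35 (standard error 1.30).

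**Figure D4:**
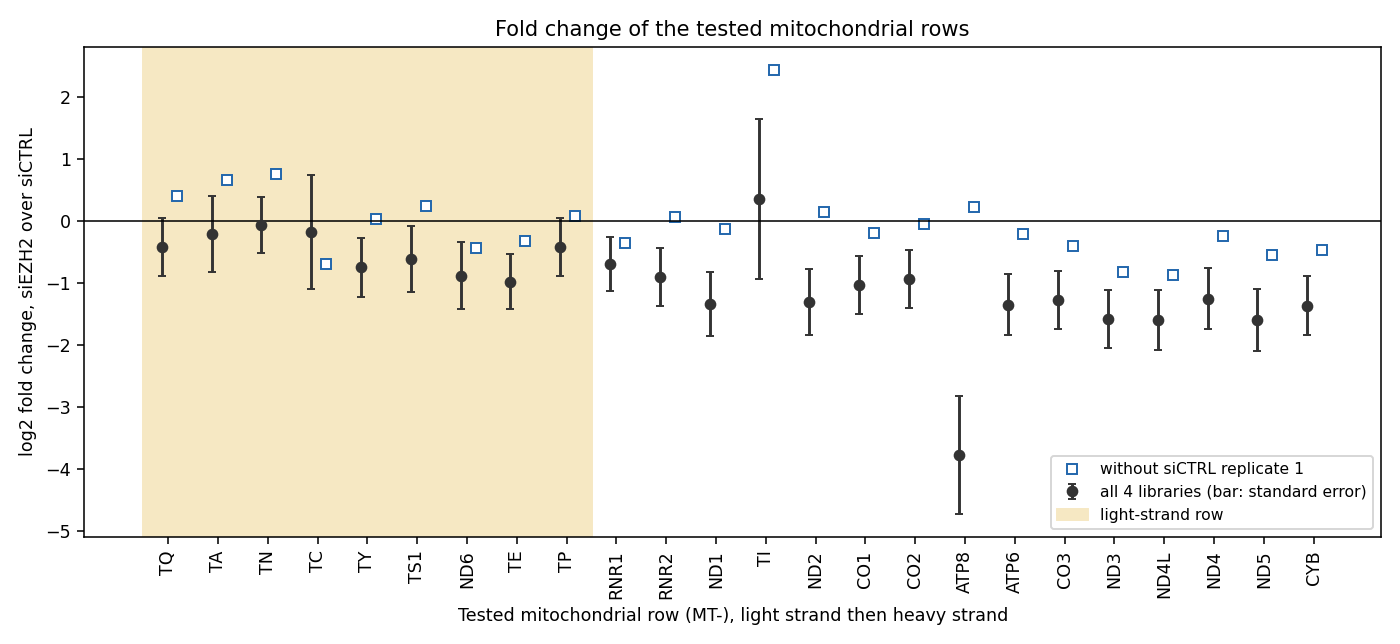
Log2 fold change, siEZH2 over siCTRL, of the 24 tested mitochondrial rows with all 4 libraries (filled, bars are standard errors) and without siCTRL replicate 1 (open), light-strand rows shaded. With all libraries 23 of 24 values are negative, and without that library 6 of the 9 light-strand values are positive.

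Nuclear pseudogene copies of mitochondrial genes can share reads with them, so these counts are uncertain on both sides. The table holds 415 such rows, with 1788 and 2367 counts in the libraries labelled siEZH2, against 986 and 1170 in those labelled siCTRL. Those sums were far below the mitochondrial counts themselves. The 3 rows with the most counts were each highest in siCTRL replicate 1. MTATP6P1 held 45 and 121 counts in the libraries labelled siEZH2, against 240 and 89 in those labelled siCTRL. MTND2P28 held 53 and 53, against 131 and 38, and MTND4P20 held 20 and 42, against 55 and 25. The other 412 rows had a larger sum in the libraries labelled siEZH2, with 1670 and 2151 counts there, against 560 and 1018 in the libraries labelled siCTRL. Of these rows 248 had a higher and 109 a lower mean share of library counts in the libraries labelled siEZH2, and 55 were at 0 in all 4 libraries. A lean to higher values at low counts ran through the whole table. Log2 fold changes (TMM factors) were positive for 70.6% of all tested rows averaging fewer than 20 counts. That percentage is on another scale, and whether the pseudogene rows departed from other low-count rows was not tested.

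Nuclear genes that copy mitochondrial DNA or make, process and degrade its RNA showed no call: 27 of 28 could be tested, 12 were positive and 15 negative, and their median log2 fold change was -0.24, beside a median of 0.22 over all tested rows. At an unadjusted p under 0.05 (edgeR) 1 was positive and 3 were negative, where 8.53% of all tested rows were positive and 7.91% negative. POLG, the catalytic subunit of the mitochondrial DNA polymerase, held 1552 and 1791 counts in the libraries labelled siEZH2, against 3998 and 3271 in those labelled siCTRL. The groups do not overlap, and in CPM with TMM scaling factors 22.9% of all tested rows likewise lay below in both libraries labelled siEZH2. The POLG log2 fold change was -1.60 (standard error 0.44, edgeR adjusted p = 0.189). The POLG row shares 458 exonic bases with FANCI on the other strand. SLIRP, a partner of LRPPRC in stabilising mitochondrial mRNAs, had -0.94, and TWNK, the mitochondrial DNA helicase, had -0.76, and their rows share exonic bases with SNW1 and MRPL43. LRPPRC itself was named after its value was seen. In CPM with TMM scaling factors it averaged 32.7 ± 5.29 in the libraries labelled siEZH2 and 16.2 ± 4.63 in those labelled siCTRL (SD, n = 2 each). Its fold change on the log2 scale was 1.01 (edgeR adjusted p = 0.271). TEFM, of the same list and likewise named after its value was seen, went the other way. It averaged 9.33 ± 2.89 CPM in the libraries labelled siEZH2 and 32.5 ± 11.5 CPM in those labelled siCTRL (SD, n = 2 each). The TEFM log2 fold change was -1.79 (edgeR adjusted p = 0.189).

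The enzymes that load mitochondrial tRNAs with amino acids likewise showed none: 17 of 19 could be tested, 6 were positive and 11 negative, and the median was -0.27, with 0 positive and 1 negative at an unadjusted p under 0.05 (edgeR; over all tested rows 8.53% and 7.91%). KARS1, the lysine enzyme, had -0.54 and GARS1, the glycine enzyme, had 0.51. The KARS1 row shares exonic bases with TERF2IP on the other strand. Nuclear-encoded subunits of the respiratory chain showed none among the 68 of 76 that could be tested, where 21 were positive and 47 negative and the median was -0.53, with 1 positive and 9 negative at an unadjusted p under 0.05 (edgeR; over all tested rows 8.53% and 7.91%). NDUFS7, a complex I subunit, held 188 and 302 counts in the libraries labelled siEZH2, against 625 and 403 in those labelled siCTRL, a log2 fold change of -1.59 (edgeR adjusted p = 0.189). NDUFB2, also of complex I, had -0.83 and CYC1, cytochrome c1 of complex III, had -0.79. The NDUFB2 row shares exonic bases with BRAF and NDUFB2-AS1 on the other strand, and the NDUFS7 row shares 2693 with AC005329.1 and 1007 with AC005329.3.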

How the data were processed

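RNA was sequenced from C4-2 cells in 4 libraries, 2 per group, grouped by their titles. A stranded kit for total RNA was used, per the labels' protocols. The submitters' processing notes name STAR 2.7.10b, featureCounts 2.0.3, edgeR and limma, with GRCh38 (hg38), without roles. Which annotation release and strand setting were used is not stated there. The authors deposited whole-number counts per row, not normalised, with row lengths. All 37 mitochondrial row lengths equal those of GENCODE release 29, from which positions and sequences were taken.

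The test was edgeR's (version 4.0.16, R 4.3.3) (filterByExpr, TMM, glmQLFit, glmQLFTest, no covariate, Benjamini-Hochberg over 24431 rows, calls at 0.05). TMM factors were 1.12 and 1.34 for siEZH2 and 0.704 and 0.945 for siCTRL. The procedure was tested on simulated counts: of 200 rows changed 2-fold, 4-fold and 8-fold, 0%, 27.5% and 58% were called. Shares used exact binomial intervals and exact permutation tests (scipy 1.17.1). Alternatives were other scaling factors, filters, DESeq2 1.42.0, limma-voom (limma 3.58.1), a replicate block and each library left out.

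Every MT- row was accounted for. Outside them, EZH2, the 3 pseudogene rows and the 3 members of each nuclear list with most counts were named, except 1 that is not reported here. Members, lists and tests were chosen with earlier results of these data known.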

Additional observations from a re-analysis of the deposited data

How the results depend on the processing

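Calls depended on the tool and scaling, and 1 library carried most fold changes. The test on all libraries called 0 rows in the table and 0 mitochondrial rows (edgeR). RLE factors gave 13 and 1, no low-count filter 80 and 1, DESeq2 868 and 8 (with no adjusted p for 19420 rows), and limma-voom 345 and 2. Upper-quartile factors, scaling on well-covered rows, no scaling factors, scaling without mitochondrial rows and a minimum of 50 counts each called 0 and 0. MT-ATP8 was the single mitochondrial row called with RLE factors and without the filter. With the replicate block, 1327 rows (248 higher, 1079 lower) and 11 mitochondrial ones were called, 10 of them heavy-strand and the other MT-ND6. Labels do not say that replicate numbers pair libraries, and deviations of same-numbered libraries correlated at 0.05. The block left the share differences as they were. Leaving out 1 library gave 1 to 234 calls, 0 to 1 of them mitochondrial, a heavy-strand median from -1.94 to -0.21 and a light-strand median from -1.05 to 0.08. The heavy-strand median was -0.44 when scaled on well-covered rows. The light-strand share difference ran from 0.356 to 6.68 points, its tRNA counterpart from -0.13 to -0.0020, and the mitochondrial share difference from -0.52 to 0.19, its sign turning without siCTRL replicate 1. The cause was not tested. In the simulation 0% of 2-fold changes were called at this depth and spread. Recovery at the counts of the mitochondrial rows was not measured separately.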
